A study of Mus musculus with 8 samples.

Results

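The genes described are 31 members of the TGF-beta and BMP pathway, from secreted ligands through receptors and Smad proteins to extracellular antagonists and the Id genes. They were taken as a list of names and found on the array by matching each probe's accession to a gene symbol in a RefSeq table. All 31 were represented among 45586 genes on the array, and 30 passed the filter on dim probes. The 30 are Tgfb1, Tgfb2, Tgfb3, Bmp1, Bmp2, Bmp4, Bmp7, Inhba, Inhbb, Ltbp1, Ltbp2, Tgfbr1, Tgfbr2, Tgfbr3, Bmpr1a, Bmpr1b, Bmpr2, Smad1, Smad2, Smad3, Smad4, Smad6, Smad7, Chrd, Fst, Nog, Id1, Id2, Id3 and Id4, and the remaining gene, Grem1, is described apart from them.

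TGF-beta, activin and BMP ligands are secreted dimers that bring type I and type II receptor kinases together. The type I receptor phosphorylates a Smad protein, Smad2 or Smad3 after TGF-beta and activin and Smad1 or its relatives after BMP, and the phosphorylated Smad joins Smad4 and enters the nucleus. In mammary epithelium TGF-beta is known for restraining growth and, in carcinoma, for promoting a mesenchymal state, and the Id genes are textbook BMP targets whose products hold back basic helix-loop-helix transcription factors.

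The RNA came from mammary tumours of mice with 2 transgenes, sSHIP and C(3)1 Tag. The first places GFP under the internal s-SHIP promoter of Inpp5d, and the second drives the SV40 large T antigen from the C3(1) promoter. Every array in both groups carries both transgenes. Tumours were dissociated and sorted into Lin-CD49f+GFP+ cells and Lin-CD49f+GFP- cells, called GFP-positive and GFP-negative cells here, with 4 arrays of each. The lineage antibodies, the treatment and the age of the mice are not given in the sources used here. Titles give each population the numbers 566, 567, 573 and 631. A number is taken to mark 1 tumour, since arrays of the same number resembled each other most. The labels do not say that each number is a separate animal, and if some are not, the p-values cover no more than the spread among the samples at hand. In sorted bulk RNA, fewer cells of a type and less RNA per cell cannot be told apart.

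The share of gene spots well above background was 34.1% on the array of GFP-positive cells of 573 and 53.5% to 58.5% on the other 7. The dimmest spot still called above background had 142 intensity units on that array and 13.4 to 23.5 elsewhere. All arrays came from 1 slide, and the slide column and the population cannot be told apart because each column held 1 population. Inpp5d, source of the reporter's promoter, read 1.98 log2 units higher in GFP-positive cells (SE 0.59, n = 4). Its level in GFP-positive cells of 573 did not clear background, and without 573 the differences ran from 1.68 to 2.75. Itga6, which encodes CD49f, differed by 0.08 (SE 0.36).

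Marker lists of cell types shifted between populations without any gene passing. The 8 luminal epithelial genes read higher in GFP-positive cells by a median of 0.92, a value that rested on tumour 631. Without 631 it was 0.26, and the GFP-negative array of 631 stood apart, with Epcam at -1.59 against 2.38 to 3.89 on the other 7. Of 8 basal genes 7 read higher (median 0.25, and 0.10 without 631). The 8 pericyte genes read lower by a median of 1.29. Of these, Mcam and Notch3 were well above background on all 8 arrays and differed by -0.17 and -0.16. The others were dim on a GFP-positive array, among them Cspg4, which differed by -0.18 with both directions among tumours. The 4 endothelial genes tested read higher by a median of 1.61, and by 0.57 without 566. The 5 macrophage genes tested read lower (median -0.82). Among them Csf1r (-0.35) and Cd68 (-0.23) were well above background on all 8 arrays. Of other blood cell markers Cd3e was detected, and Ptprc, Cd3g, Ncr1 and Ms4a1 were not well above background on any array. With the tumour as a block 5 pericyte, 3 macrophage, 2 endothelial and 1 luminal gene had an unadjusted p under 0.05. These 5 pericyte and 3 macrophage genes were each dim on at least 1 GFP-positive array. They passed the filter only through the GFP-negative arrays, where they read higher, so they are no independent support for a shift. Over all genes the share with such a p was 5.49%. The part of these shifts in the values of the pathway genes was not tested. None of these marker genes had an adjusted p under 0.05 in the comparison of populations.

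Levels are log2 processed intensity minus the 75th percentile of the array, so that 0 is that percentile. Levels of different genes are not compared, because each probe has its own brightness. Differences between populations are GFP-positive minus GFP-negative.

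Promoter sequence was held in the RefSeq table (GRCm38.p6) for 20 of the 31 genes, as 300 bases from 250 before to 50 after the start of the gene. The 5 printed here belong to genes on which the results turn. Inhba and Ltbp2 shared a pattern of highest level in tumour 567 and lowest in 573, Bmp4 was lowest in 567, Grem1 was bright in 631 alone, and Id2 had the same direction between populations in every tumour. Each is written 5' to 3' on the strand of the gene, with GTCTG or its reverse complement CAGAC in capitals. These letters are known as a core that Smad3 and Smad4 bind. Inhba lies at chr13:16011601-16011900 on the plus strand. The others lie on the minus strand, Ltbp2 at chr12:84876442-84876741, Bmp4 at chr14:46390620-46390919, Id2 at chr12:25096043-25096342 and Grem1 at chr2:113758599-113758898.
Inhba: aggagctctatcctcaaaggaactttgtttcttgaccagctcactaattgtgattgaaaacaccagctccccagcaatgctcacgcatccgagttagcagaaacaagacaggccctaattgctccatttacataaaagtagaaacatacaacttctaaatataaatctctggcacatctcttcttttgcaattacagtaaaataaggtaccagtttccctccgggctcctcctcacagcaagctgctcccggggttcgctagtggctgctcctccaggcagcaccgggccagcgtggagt
Ltbp2: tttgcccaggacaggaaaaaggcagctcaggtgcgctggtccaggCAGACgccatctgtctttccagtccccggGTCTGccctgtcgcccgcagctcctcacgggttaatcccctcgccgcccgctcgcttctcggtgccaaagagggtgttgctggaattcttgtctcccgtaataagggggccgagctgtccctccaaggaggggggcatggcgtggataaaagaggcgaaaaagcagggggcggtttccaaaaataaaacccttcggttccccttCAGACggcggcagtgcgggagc
Bmp4: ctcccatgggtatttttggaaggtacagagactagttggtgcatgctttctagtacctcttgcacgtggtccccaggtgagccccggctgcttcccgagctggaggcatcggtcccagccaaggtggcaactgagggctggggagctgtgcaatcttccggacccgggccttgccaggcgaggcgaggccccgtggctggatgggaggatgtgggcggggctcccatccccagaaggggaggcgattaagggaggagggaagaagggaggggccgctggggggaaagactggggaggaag
Id2: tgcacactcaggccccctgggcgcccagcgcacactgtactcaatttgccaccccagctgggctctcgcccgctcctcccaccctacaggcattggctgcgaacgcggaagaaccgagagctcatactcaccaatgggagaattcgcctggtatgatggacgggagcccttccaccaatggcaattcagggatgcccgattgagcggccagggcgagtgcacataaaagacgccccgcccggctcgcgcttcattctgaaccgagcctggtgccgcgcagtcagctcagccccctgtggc
Grem1: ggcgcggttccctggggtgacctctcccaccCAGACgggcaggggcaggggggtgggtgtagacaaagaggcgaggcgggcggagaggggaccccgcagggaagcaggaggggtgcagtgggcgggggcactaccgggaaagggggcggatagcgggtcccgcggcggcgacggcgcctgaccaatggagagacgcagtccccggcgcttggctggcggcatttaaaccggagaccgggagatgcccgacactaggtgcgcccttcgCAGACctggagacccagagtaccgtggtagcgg
The window of Ltbp2 held 3 copies of the motif on either strand and that of Grem1 held 2. Those of Inhba, Bmp4 and Id2 held 0. Of 32851 promoter windows of the same length in the table, 49.6% held at least 1 copy, so a copy in a given window is common. The Grem1 and Id2 windows each also held 1 copy of GGCGCC, a palindrome within BMP-responsive elements to which Smad proteins bind, which was present in 11.9% of all windows. The windows of Bmp4, Ltbp2, Id2 and Grem1 were 61.0% to 70.7% G and C, and that of Inhba was 47.7%.

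The first comparison asks whether the level of each gene differed between tumours, with the population as an additive term in the fit (limma F test, 2 arrays per tumour). Of the 30 genes, 21 differed between tumours at an adjusted p under 0.05. Over all 20265 genes tested the share was 28.8%. The median range of tumour means was 1.46 log2 units for the 30 genes and 0.82 for all genes. The tumour accounted for a median of 88.9% of a member's sum of squares and 76.8% of that of all genes. Among the 21, 19 had a range over 1 log2 unit, as did 90.6% of the 5834 genes called over the whole array. The tumour of highest mean lay above all other arrays, in both populations, for 13 of the 21, and the tumour of lowest mean lay below all others for 12. Over all called genes these shares were 66.6% and 65.1%, so on these measures the 21 resembled other called genes. The 2 arrays of a tumour are sorted fractions of the same tissue, so this test sets differences between tumours against the spread between fractions.

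**Figure D1:**
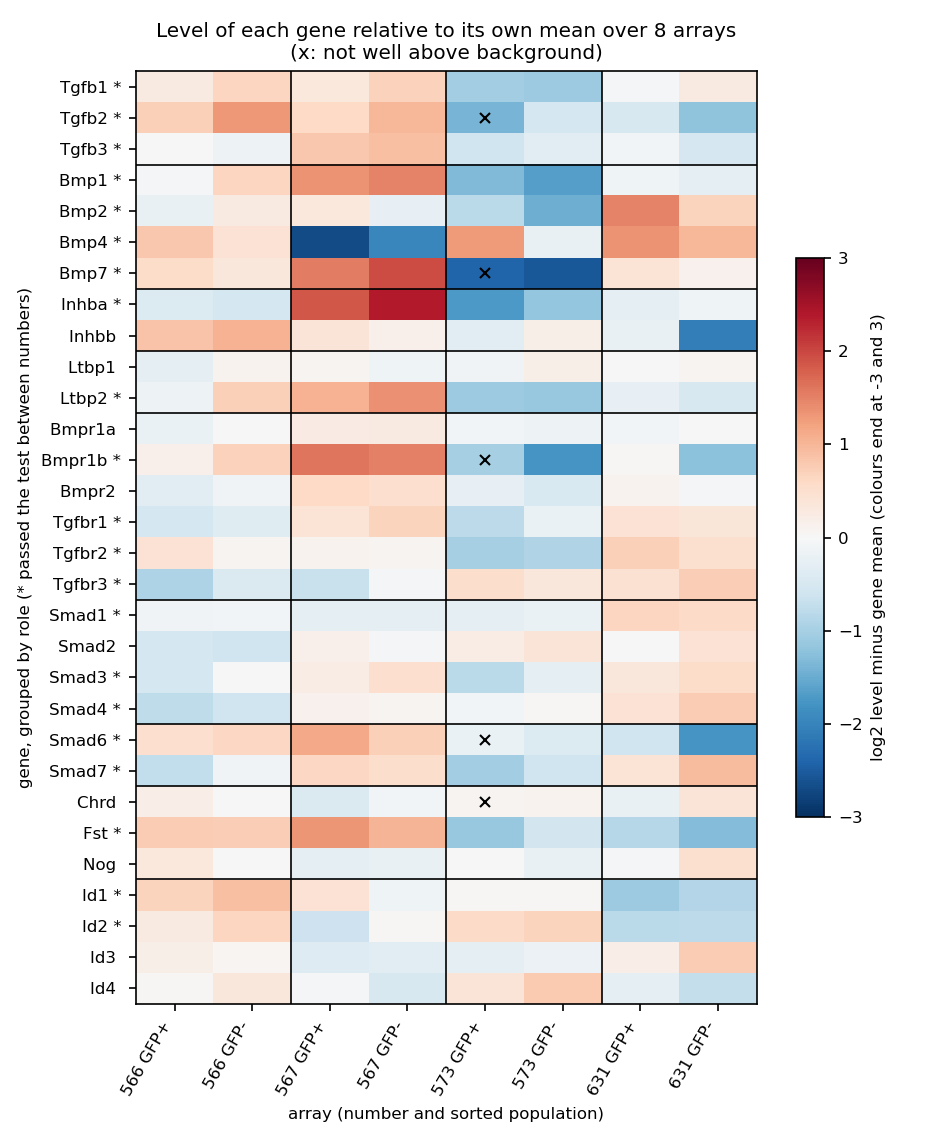
Colour gives the log2 level of each of 30 genes minus its own mean over 8 arrays. Rows are genes grouped by role and columns are the GFP-positive and GFP-negative arrays of tumours 566, 567, 573 and 631. An asterisk marks the 21 genes that passed the test between tumours and a cross marks an array where the gene was not well above background. Most rows change colour between tumours, with both arrays of a tumour alike.

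The most frequent order was highest in 567 and lowest in 573. It was found in 8 of the 21 genes (38.1%), namely Tgfb1, Tgfb3, Bmp1, Bmp7, Inhba, Ltbp2, Bmpr1b and Tgfbr1, and in 8.64% of all called genes. As measured, both arrays of 567 lay above and both of 573 below all others for Bmp1, Bmp7, Inhba and Ltbp2. In the rest the order was less clear. Tgfb1 had means of 1.36 in 567 and 1.30 in 566, and Tgfbr1 -0.76 in 573 and -0.72 in 566. Those of Tgfb3 were 1.95 in 573 and 2.14 in 631, whose arrays overlapped. For Bmpr1b the lowest place of 573 rests on an array that was not well above background. Tumour 567 was highest for 10 of the 21 and 631 for 8. Tumour 573 was lowest for 13. Over all 5834 called genes, 567 was highest in 15.8%, 631 highest in 34.5% and 573 lowest in 31.4%. The 8 of 21 for 631 (38.1%) thus lay near its share over all called genes. Summed levels of several marker lists were also lowest in 573. The fibroblast sum was 14.3 and 18.5 times the array's 75th percentile in GFP-positive and GFP-negative cells, against 53.8 to 213 in the other tumours. Of its 7 tested genes 5 were lowest in 573, whereas Fap was lowest in 631 and Pdgfra in 566. The luminal sum was 288 and 299 in 573, against 325 to 546 elsewhere. Gene by gene, however, 2 of the 8 luminal genes were lowest in 573 (Krt8 and Krt18) and 5 in 631. The pericyte sum was lowest in 573 within each population (35.3 and 54.6), with 4 of its 8 genes lowest there. The next lowest sums were those of 566, at 48.3 in GFP-positive and 55.9 in GFP-negative cells, so the GFP-negative sums of 573 and 566 were nearly equal. The part of these lists in the low levels of 573 was not tested.

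The 3 TGF-beta ligands all differed between tumours. Tgfb1, the ligand made by most tissues, read 1.11, 1.16, -0.20 and 0.79 in GFP-positive cells of 566, 567, 573 and 631, and 1.50, 1.55, -0.25 and 1.13 in GFP-negative cells. Both arrays of 573 lay below all 6 others (range of tumour means 1.58, or 2.98-fold, limma F test, adjusted p = 0.0115). Tgfb2 read 0.03, -0.09, -2.10 and -1.16 in GFP-positive cells, in the same order of tumours, and 0.61, 0.31, -1.23 and -1.89 in GFP-negative cells. Its levels in 573 and 631 were all below those in 566 and 567 (range 1.98, limma F test, adjusted p = 0.0223). The GFP-positive array of 573 was not well above background, so the order of 573 and 631 is not settled. Tgfb3, a ligand also secreted by mammary epithelium, read 2.41, 3.23, 1.82 and 2.35 in GFP-positive and 2.27, 3.32, 2.08 and 1.93 in GFP-negative cells. Only 567 stood clear of the other tumours, above all 6 of their arrays (range 1.33, limma F test, adjusted p = 0.0259).

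The BMP ligands and Bmp1 had the widest median range of any role, at 3.19 log2 units. Bmp1, which in spite of its name is a metalloproteinase that processes procollagen and releases BMP from its antagonist chordin, read 3.85, 5.27, 2.59 and 3.78 in GFP-positive cells of 566, 567, 573 and 631 and 4.55, 5.40, 2.27 and 3.62 in GFP-negative cells. Both 567 arrays were the highest and both 573 arrays the lowest of the 8 (range 2.91, or 7.49-fold, limma F test, adjusted p = 0.00823). Bmp7 read 0.88, 1.86, -2.07 and 0.73 in GFP-positive cells and 0.66, 2.29, -2.23 and 0.46 in GFP-negative cells. Its measured tumour means spanned 4.22 log2 units between 567 and 573 (limma F test, adjusted p = 0.00406), the largest range among the 30, and the tumour accounted for 99.1% of its sum of squares. In 573 Bmp7 was well above background on 1 of 2 arrays, the GFP-negative one. With the other array put at its lowest signal well above background, Bmp7 was at least 14.2-fold higher in 567.

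Bmp4 followed the opposite order for tumour 567. It read 1.37, -2.13, 1.84 and 1.90 in GFP-positive cells and 0.99, -1.39, 0.34 and 1.55 in GFP-negative cells, with both 567 arrays lowest (range 3.48, or 11.2-fold, limma F test, adjusted p = 0.0143). Bmp2 read 0.28, 0.81, -0.31 and 2.0 in GFP-positive and 0.77, 0.26, -0.96 and 1.18 in GFP-negative cells. Its 631 arrays were highest and its 573 arrays lowest (range 2.22, or 4.67-fold, limma F test, adjusted p = 0.0232). In tumour 567, therefore, Bmp7 was at its highest and Bmp4 at its lowest, although both are BMP ligands.

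**Figure D2:**
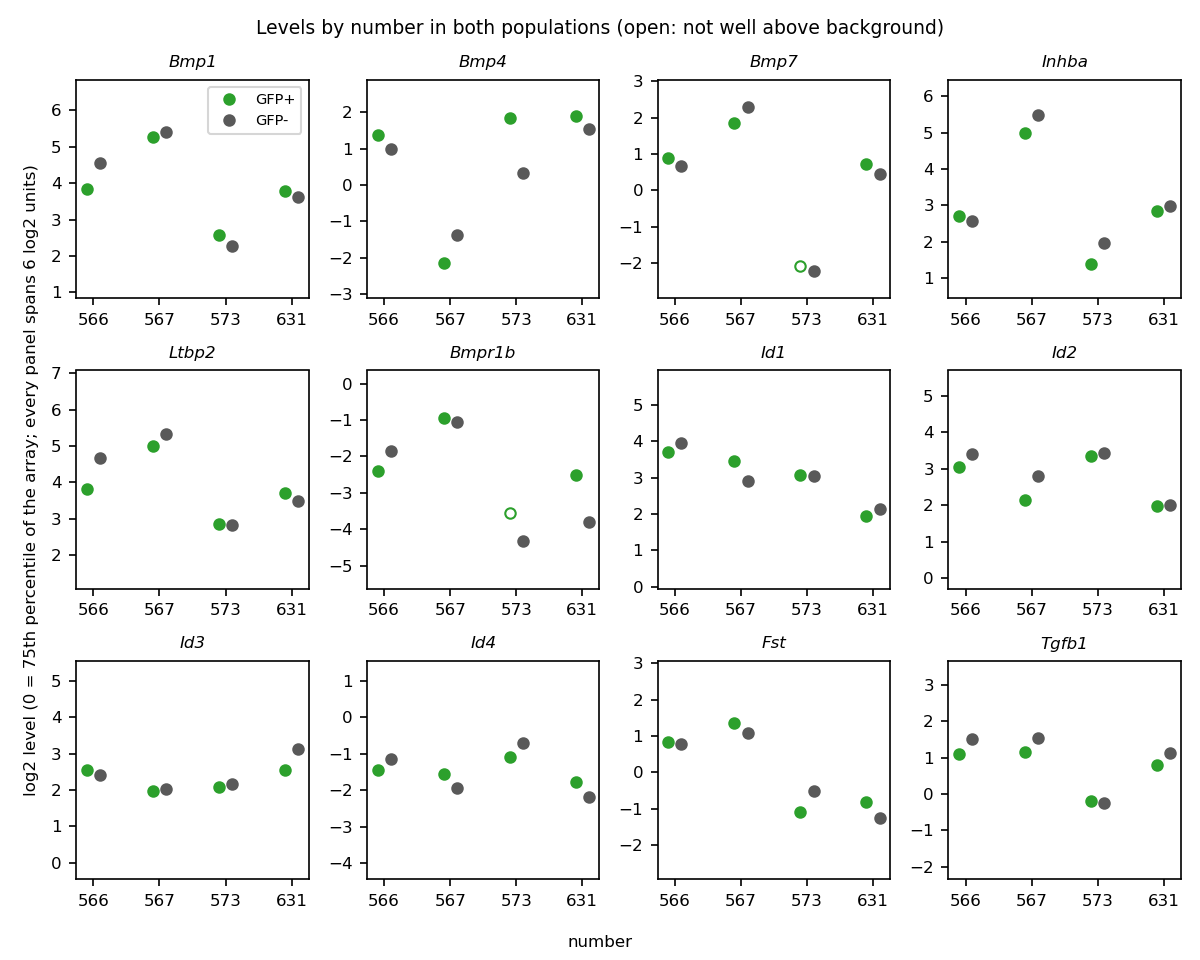
Each panel shows the log2 level of a gene (0 is the 75th percentile of the array) in GFP-positive and GFP-negative cells of each tumour, 1 point per array. Every panel spans 6 log2 units, and an open point was not well above background. The 2 points of a tumour sit close together for Bmp1, Bmp7, Inhba and Ltbp2, which differ in level from tumour to tumour.

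Of the activin subunits, Inhba, which forms activin A, differed between tumours and Inhbb did not pass. Inhba read 2.72, 4.98, 1.40 and 2.84 in GFP-positive cells and 2.58, 5.49, 1.96 and 2.98 in GFP-negative cells. Both 567 arrays lay above every other array, and both 573 arrays were lowest (range 3.56, or 11.8-fold, limma F test, adjusted p = 0.00571). Inhbb read 3.40, 2.95, 2.23 and 2.33 in GFP-positive cells and 3.60, 2.72, 2.74 and 0.49 in GFP-negative cells. Its range of tumour means was 2.09, but the arrays of 631 were 1.84 log2 units apart (limma F test, adjusted p = 0.0925). The latent TGF-beta binding proteins are matrix proteins, of which Ltbp1 tethers latent TGF-beta and Ltbp2 does not bind it. Ltbp2 read 3.81, 5.01, 2.86 and 3.71 in GFP-positive cells and 4.67, 5.32, 2.83 and 3.48 in GFP-negative cells (range 2.32, limma F test, adjusted p = 0.0132). Ltbp1 stayed between 1.43 and 1.86 on all 8 arrays, with tumour means 0.13 apart (limma F test, adjusted p = 0.939).

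Among the receptors, 4 of 6 differed between tumours. Bmpr1b, a type I BMP receptor, read -2.40, -0.96, -3.56 and -2.52 in GFP-positive cells and -1.86, -1.05, -4.33 and -3.80 in GFP-negative cells, highest in 567 (range as measured 2.94, limma F test, adjusted p = 0.0175). In 573 it was well above background on 1 of 2 arrays, and between the other 3 tumours the range was 2.15, from 567 down to 631. Tgfbr1, the type I receptor for TGF-beta, read -0.80, 0.15, -1.05 and 0.17 in GFP-positive and -0.63, 0.40, -0.47 and 0.09 in GFP-negative cells. Tumours 567 and 631 lay above 566 and 573 on every array (range 1.04, limma F test, adjusted p = 0.0284). Tgfbr2, the type II receptor that binds TGF-beta first, read 2.44, 2.11, 1.02 and 2.72 in GFP-positive and 2.09, 2.10, 1.12 and 2.50 in GFP-negative cells, lowest in both arrays of 573 (range 1.54, limma F test, adjusted p = 0.0142). Tgfbr3, the co-receptor betaglycan, read -0.84, -0.59, 0.61 and 0.53 in GFP-positive and -0.37, 0.02, 0.41 and 0.81 in GFP-negative cells. Its levels in 573 and 631 exceeded those in 566 and 567 (range 1.28, limma F test, adjusted p = 0.0277). Bmpr1a stayed within 0.98 to 1.44 (adjusted p = 0.335), and Bmpr2, the type II BMP receptor, ranged over 0.91 log2 units between tumours without passing (limma F test, adjusted p = 0.0507).

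The Smads that carry the signal differed less in size. Smad1, the BMP Smad of the list, read 2.15, 1.98, 1.97 and 2.88 in GFP-positive and 2.17, 1.96, 2.05 and 2.82 in GFP-negative cells. Tumour 631 stood above the rest and the populations of each tumour were nearly equal (range 0.89, or 1.85-fold, limma F test, adjusted p = 0.0345). Smad3 read 1.54, 2.28, 1.24 and 2.39 in GFP-positive and 2.05, 2.57, 1.79 and 2.61 in GFP-negative cells (range 0.98, limma F test, adjusted p = 0.0282), with 567 and 631 above 566 and 573 on every array. Smad4, the common partner, read 2.69, 3.57, 3.36 and 3.87 in GFP-positive and 2.85, 3.53, 3.49 and 4.21 in GFP-negative cells, lowest in 566 (range 1.27, limma F test, adjusted p = 0.0223). Smad2 had a range of 0.86 that did not pass (limma F test, adjusted p = 0.0762).

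Both inhibitory Smads differed between tumours, in different orders. Smad6, which acts mainly on BMP signalling, read -2.11, -1.47, -2.80 and -3.21 in GFP-positive and -1.99, -1.89, -3.02 and -4.39 in GFP-negative cells, highest in 567 and lowest in 631 (range 2.12, or 4.35-fold, limma F test, adjusted p = 0.0181). The GFP-positive array of 573 was not well above background for this gene. Smad7, which blocks TGF-beta receptors and is itself induced by TGF-beta, read 0.25, 1.61, -0.06 and 1.40 in GFP-positive and 0.89, 1.51, 0.39 and 1.94 in GFP-negative cells. Here 567 and 631 were the high tumours and 573 the lowest (range 1.51, or 2.85-fold, limma F test, adjusted p = 0.0163).

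Of 3 antagonists tested, Fst differed between tumours. Follistatin, its product, binds activin and keeps it from its receptors. Fst read 0.82, 1.36, -1.08 and -0.80 in GFP-positive and 0.79, 1.07, -0.51 and -1.25 in GFP-negative cells, so that 566 and 567 lay above 573 and 631 with no overlap (range 2.24, or 4.73-fold, limma F test, adjusted p = 0.00948). Fst was highest in 567, as was Inhba, the subunit of the ligand it binds. Nog and Chrd, antagonists of BMP, had ranges of 0.47 and 0.36 and did not pass (limma F test, adjusted p = 0.366 and 0.502).

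Grem1, which encodes the secreted BMP antagonist gremlin, was well above background on 4 of 8 arrays and stayed out of the main test. Its processed intensity was 13842 in GFP-positive and 14297 in GFP-negative cells of tumour 631. In GFP-positive cells of 566, 567 and 573 the intensity was 35.3, 45.5 and 31.4, and in GFP-negative cells 12.1, 11.6 and 3.12. Of these 6 arrays, the GFP-positive ones of 566 and 567 were well above background and the other 4 were not. Tumour 573 had no array above background, and against the lowest signal well above background on its arrays, or the probe's own where higher, Grem1 was at least 245-fold higher in 631. The mean log2 level was 4.86 in 631 and -5.28 as measured in 573. With a filter of 3 of 4 arrays in a population Grem1 entered the test, which then called 22 of 31 members. Over all genes that setting called 5079 of 23064 (22.0%).

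**Figure D3:**
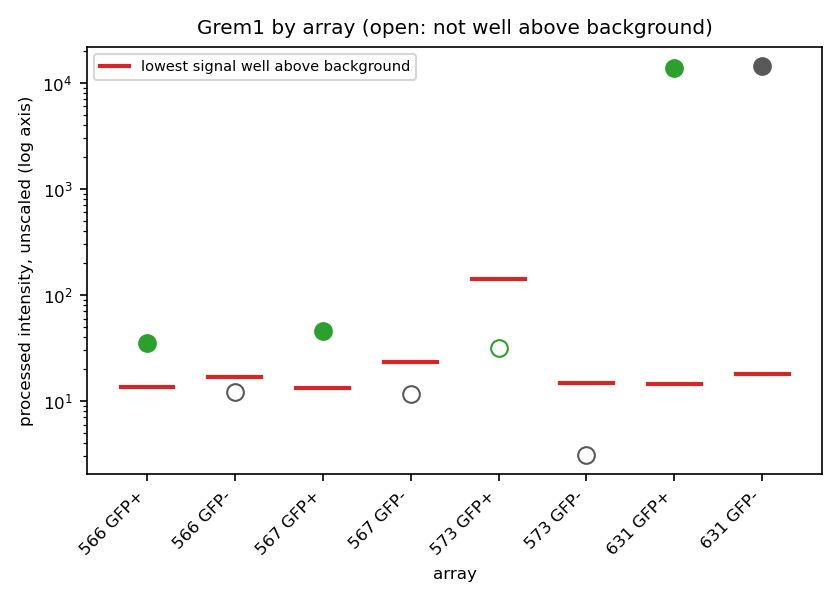
Processed intensity of the Grem1 probe on each array, unscaled and on a log axis. Open points were not well above background, and the red line is the lowest signal well above background on that array. Both arrays of 631 lie at 13842 and 14297 units, and the other 6 lie at or below 45.5.

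The 4 Id genes encode inhibitors of DNA binding, and 2 of them differed between tumours, in different orders. Id1 read 3.70, 3.46, 3.06 and 1.95 in GFP-positive cells of 566, 567, 573 and 631 and 3.94, 2.91, 3.05 and 2.14 in GFP-negative cells, with both 631 arrays below the other 6 (range 1.78, or 3.43-fold, limma F test, adjusted p = 0.0182). Id2 read 3.04, 2.16, 3.34 and 1.97 in GFP-positive and 3.41, 2.80, 3.44 and 2.0 in GFP-negative cells. Its lowest arrays were again those of 631, while 573 was highest (range 1.41, or 2.66-fold, limma F test, adjusted p = 0.0186). Id3 read 2.54, 1.96, 2.07 and 2.54 in GFP-positive and 2.40, 2.01, 2.17 and 3.12 in GFP-negative cells, and its highest mean was in 631 (range 0.85, adjusted p = 0.0878). Id4 read -1.44, -1.54, -1.08 and -1.77 in GFP-positive and -1.14, -1.95, -0.70 and -2.20 in GFP-negative cells (range 1.09, adjusted p = 0.0743). By tumour means, 631 thus held the lowest Id1, Id2 and Id4 and the highest Id3, Grem1, Bmp2 and Bmp4 of the 4 tumours. Over all called genes, 631 was lowest in 28.2% and highest in 34.5%. Id3 and Id4 did not pass the test. For Bmp4 the GFP-negative array of 631 (1.55) lay below the GFP-positive array of 573 (1.84). A link between these genes was not tested.

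The calls between tumours rested on few arrays. With any one of the 8 arrays left out, Bmp1, Bmp7, Inhba and Fst passed in 8 of 8 refits, Tgfb1 and Smad7 in 7, Ltbp2, Bmpr1b and Smad6 in 6, Bmp4 and Tgfbr2 in 5 and Id1 in 4. Tgfb2, Tgfb3 and Tgfbr1 passed in 3, Bmp2, Tgfbr3, Smad4 and Id2 in 2, and Smad1 and Smad3 in 0. Without the dim GFP-positive array of 573, 12 of 31 members passed beside 3373 of 22279 genes. Without tumour 567 it was 8 of 30 beside 2260 of 21126, and without 573 it was 11 of 31 beside 3144 of 22348. Without the GFP-negative array of 631 it was 14 of 30 beside 3059 of 21120. Bmp7 and Fst passed with any one tumour left out. After quantile normalization 11 members passed (Tgfb1, Bmp1, Bmp4, Bmp7, Inhba, Tgfbr2, Smad4, Smad7, Fst, Id1 and Id2), and with a common floor for dim signals 7 did (Tgfb1, Bmp7, Inhba, Bmpr1b, Tgfbr2, Smad1 and Smad4). Under that floor the range of Bmpr1b was 0.28, since most of its levels lie below the floor. The range of Smad6 was 0 there, since all of its levels do. With no filter on dim probes, 0 of 45586 genes passed. Id2 also missed the threshold after median scaling, and Tgfbr1, Smad1 and Smad3 did so with the percentile taken over probes detected on all arrays.

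The second comparison is the one named by the series, GFP-positive against GFP-negative cells (limma, n = 4 and 4). None of the 30 genes passed. Over all 20265 genes the share called was 0%, with 161 genes (0.794%) at an unadjusted p under 0.05 and 0 of the 30. With the tumour as a block, 0 of 20265 genes were called and 1113 (5.49%) had an unadjusted p under 0.05, among them 1 member, Smad3. Differences ran from -0.39 to 0.42 log2 units with SE from 0.18 to 1.06. Of the 30, 12 read higher and 18 lower in GFP-positive cells, with a median of -0.08, and over all genes the median was -0.06 (7389 higher, 12876 lower). The populations overlapped for all 30 genes, and 0.834% of all genes had populations that did not overlap.

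**Figure D4:**
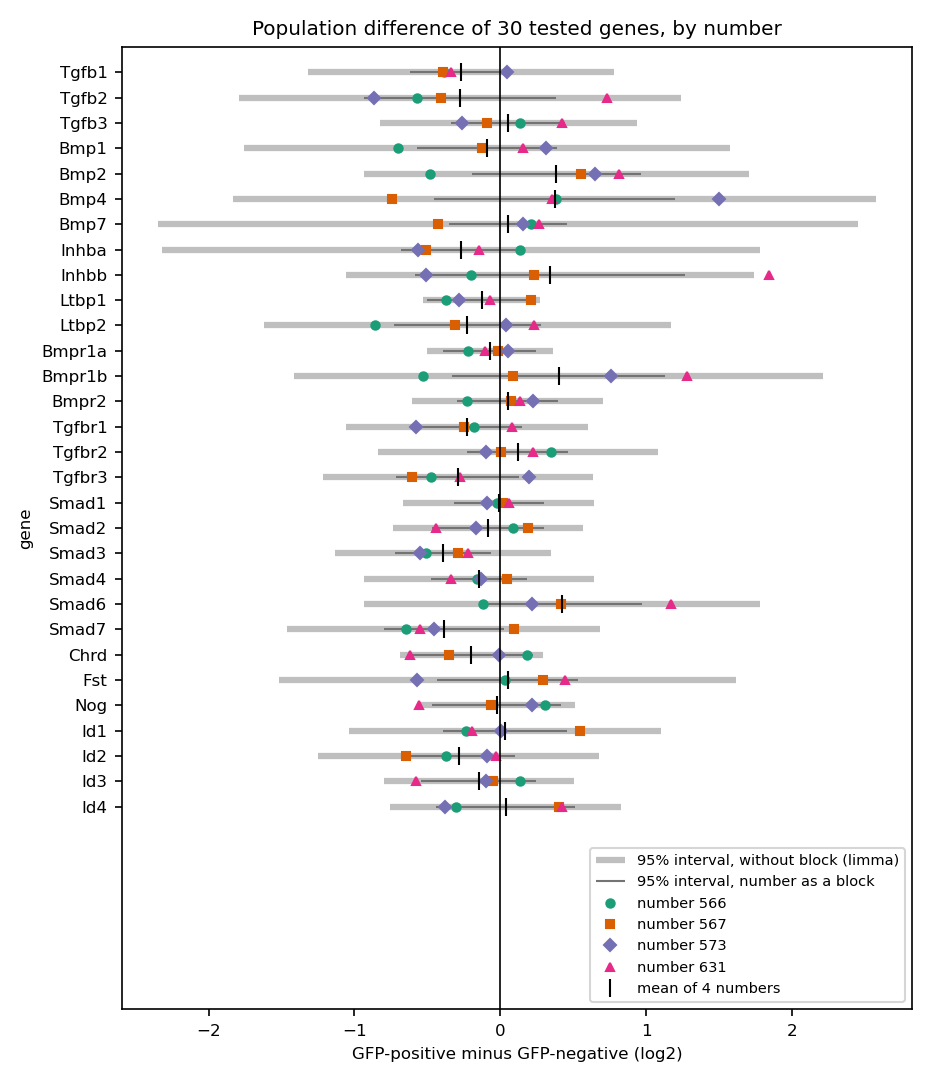
Difference between GFP-positive and GFP-negative cells in log2 units for each of 30 genes. Symbols give tumours 566, 567, 573 and 631, the black tick the mean of 4 tumours, the wide grey bar its 95% interval from limma without a block and the thin dark bar that with the tumour as a block. Every wide interval includes 0, the thin interval of Smad3 runs from -0.72 to -0.06, and Smad3 and Id2 have all 4 tumours on the lower side.

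Smad3 and Id2 were the members with 1 direction in all 4 tumours. They read lower in GFP-positive cells, as did 10.8% of all genes in every tumour, and 14.2% of all genes kept a direction in all 4. Smad3, the Smad that binds DNA after TGF-beta, differed by -0.51, -0.29, -0.55 and -0.22 in 566, 567, 573 and 631 (mean -0.39, SE 0.33, 95% interval -1.13 to 0.35, limma adjusted p = 1). With the tumour as a block its interval was -0.72 to -0.06, its unadjusted p 0.0272 and its adjusted p 0.889. Id2 differed by -0.37, -0.65, -0.09 and -0.03 (mean -0.29, SE 0.42, interval -1.25 to 0.68). The smallest of these differences, in 631, is close to 0.

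The largest mean differences between populations had wide intervals in this fit, whose SE holds the spread between tumours as well. Smad6 read 0.42 higher in GFP-positive cells (SE 0.60, interval -0.93 to 1.78), Bmpr1b 0.40 higher (SE 0.80, -1.41 to 2.21), Bmp2 0.38 higher (SE 0.58, -0.94 to 1.70) and Bmp4 0.37 higher (SE 0.97, -1.83 to 2.58). Smad7 read 0.39 lower (SE 0.47, interval -1.46 to 0.69). The inhibitory Smads thus had opposite signs, and neither passed. With the tumour as a block the intervals were -0.12 to 0.97 for Smad6, -0.33 to 1.13 for Bmpr1b, -0.19 to 0.96 for Bmp2, -0.45 to 1.20 for Bmp4 and -0.80 to 0.02 for Smad7. Bmp2, Bmp4, Bmpr1b and Smad6 changed sign when one array was left out, and Bmpr1b was -0.38 after quantile normalization. Id1, Id3 and Id4 differed by 0.03 (SE 0.47), -0.15 (SE 0.29) and 0.04 (SE 0.35), and their signs depended on the scaling or on array weights. Bmp7, with a wide range between tumours, differed by 0.05 between populations, with an SE of 1.06 without the block and 0.17 with it (interval with the block -0.35 to 0.46).

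Different probes of a gene could be compared for 10 members, with 13 further probes that passed the filter. Of these, 9 had the same highest tumour and 11 the same lowest tumour as the probe used, and 8 had the same sign between populations. For Bmp1, Bmp4, Smad3, Smad4 and Tgfb2 all further probes gave the same highest and lowest tumour. The other probe of Tgfb1 was highest in 566, that of Smad7 in 567 and that of Smad2 in 631, and that of Tgfbr1 was lowest in 566. The other probe of Bmpr1a disagreed on both tumours and read 0.50 higher in GFP-positive cells, against -0.07 for the probe used.

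Other genes of the pathway were read from 7 further lists, which hold 65 genes of which 45 were tested. Of these, 24 differed between tumours (53.3%, median range 1.40), where the share over all genes was 28.8% and the median range 0.82, and 0 differed between populations. With 5 to 10 genes a list, the counts for single lists are small, and some lie near the share over all genes. The named examples below that passed were chosen after their values were seen. Among other ligands 4 of 7 tested genes passed between tumours (Bmp8a, Gdf15, Gdf5 and Lefty1). Among other receptors it was 1 of 5, Acvr1, a type I receptor for BMP. Of other Smads and regulators 4 of 10 passed, namely Bambi, Pmepa1, Smurf1 and Tgif2. Among other antagonists 3 of 5 passed (Fstl1, Fstl3 and Nbl1), and among genes of latency and activation 2 of 6 (Furin, a protease that cleaves ligand precursors, and Itgav, an integrin chain that frees latent TGF-beta).

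Genes known to respond to TGF-beta differed between tumours in 7 of 9 cases, beside 28.8% of all genes, and Ccn1 and Skil did not pass. Of the 9, 6 were lowest in 573, while Ccn2 and Pmepa1 were lowest in 631 and Snai2 in 566. The 6 include Ccn1 and Skil, whose tumour means were only 0.18 and 0.07 apart. Tumour 573 was lowest in 25.0% of all genes tested and 31.4% of those called. Tgfbi, a matrix protein induced by TGF-beta, had tumour means of 4.12, 2.68, 0.60 and 4.08 in 566, 567, 573 and 631 (range 3.51), lowest in 573. Of genes that respond to BMP, 5 of 6 tested passed (Bambi, Dlx3, Gata3, Hey1 and Msx1). Hey1 had means of 0.97, 0.31, 1.97 and -0.99 (range 2.96) and Bambi, a decoy receptor, 2.09, 2.36, 3.11 and 1.65 (range 1.46). Both were highest in 573 and lowest in 631, the order also found for Id2 and in 16.5% of all called genes. Msx1 ran the other way, highest in 631 at 1.49 and lowest in 573.

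**Figure D5:**
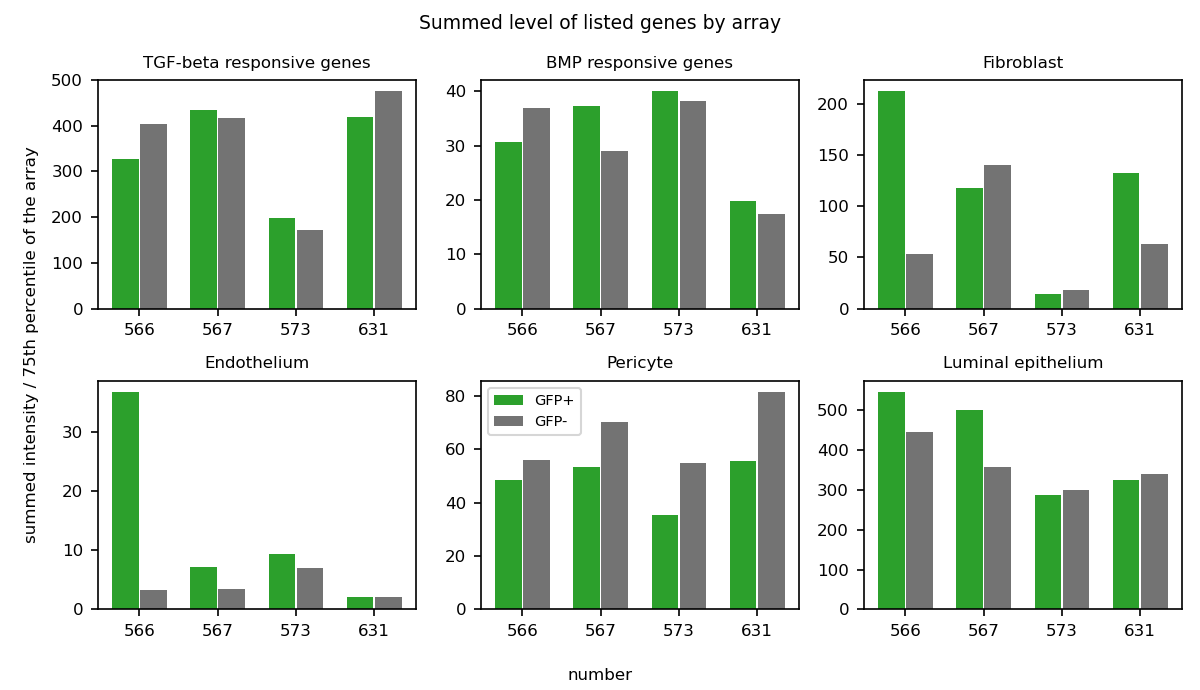
Summed level of listed genes on each array, as intensity over the array's 75th percentile, for GFP-positive and GFP-negative cells of 4 tumours. The genes responsive to TGF-beta sum lowest in 573, where the fibroblast markers, led by collagens, also sum lowest (14.3 and 18.5). Col1a1 is in both of these lists, and Fn1 has the largest part in the sum of the genes responsive to TGF-beta. The genes responsive to BMP sum lowest in 631 and the endothelial markers are highest in GFP-positive cells of 566 (36.9).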

How the data were processed

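Total RNA of 8 sorted samples was labelled with Cy3 and read on 1 Agilent array each. The authors deposited linear spot intensity. Per the file headers, Agilent Feature Extraction 10.7.3.1 subtracted background and detrended each array, and no normalization between arrays is recorded. The deposited series-wide table equalled this intensity in all 62976 spots of each array. Without control spots and outlier spots, and with repeat spots averaged, there remained 56555 of 56605 gene probes. Accessions were matched without versions to a RefSeq table (GRCm38.p6), which named 32969 probes, while 23586 kept no symbol. The array annotation is on mm9, so the coordinates printed are those of the RefSeq promoter table.

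Intensity was put on the log2 scale minus each array's 75th percentile. A probe had to be well above background on all 4 arrays of a population, and the passing probe with the highest mean stood for a gene, which gave 20265 genes. Tgfb2, Bmp7, Bmpr1b, Smad6 and Chrd passed through the GFP-negative arrays, being dim on the GFP-positive array of 573. Both fits used limma 3.58.1 in R 4.3.3 across all genes, calling genes at a Benjamini-Hochberg adjusted p under 0.05: population without a block, and an F test over the 4 numbers with population as a term. The number of arrays limits the precision. Deviations of same-numbered arrays correlated at 0.573, 0.695, 0.642 and 0.741 for 566, 567, 573 and 631, against at most 0.221 between numbers, so the numbers pair the samples. The fits were tested on simulated data.

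The members and lists were chosen with earlier results of these data known. Values array by array are given for members past a threshold, with 1 direction in all 4 numbers, among the 6 largest population differences or the 6 largest ranges, and for the Id genes. The plan for other genes was Inpp5d, Itga6 and at most 2 per list by the smallest p between populations, and not all of these are named. Others were named after their values were seen, among them Epcam, Krt8, Krt18, Csf1r, Cd68, Fap and Pdgfra. Normexp with an offset of 50 was run on median spot signals, because no mean signal was used here. Further alternatives were other scalings, filters, a common floor, probe means, array weights, the replicate block, and each array and number left out. Marker lists and Inpp5d without single tumours, and dim values of 573 put at the array's lowest signal well above background, were added after seeing the data.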

Additional observations from a re-analysis of the deposited data

Results flagged for a closer look

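In each population of 4 arrays, the highest and lowest array of each of the 31 genes was set against the others by the size of its gap (62 groups, of which chance gives about 1 in 20). Bmp4 in GFP-positive cells was lowest in tumour 567, at -2.13 log2 units, and the nearest array was at 1.37. The GFP-negative array of 567 was low as well (-1.39). Grem1 was highest in tumour 631 in both populations, at 4.73 in GFP-positive cells, where the nearest array was at -3.45, and at 4.99 in GFP-negative cells, where the nearest was at -5.57.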

How the results depend on the processing

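In the comparison of populations 0 genes and 0 members were called under every alternative run. Genes at an unadjusted p under 0.05 numbered 161 as reported and 59 to 277 under the alternatives without a block. The numbers pair the samples, and with the replicate block as a fixed term 0 genes were called (1113 at an unadjusted p under 0.05, smallest limma adjusted p 0.459). With a number left out, that smallest value ran from 0.0725 (without 631) to 0.719 (without 566). With the block as a random term 0 genes were called and the smallest limma adjusted p was 0.0532. Among members the smallest was 0.889 with the fixed and 0.933 with the random block, so neither changed the call of a member. Median scaling shifted the median of all genes to -0.16 and that of the members to -0.18.

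Between numbers, 5834 genes and 21 members were called. This became 2463 and 11 after quantile normalization, 1501 and 7 with a common floor, and 0 and 0 without a filter on dim probes, where 45586 genes were tested; a threshold of 0.1 called 8950 genes. Leaving out an array or a number gave 1494 to 5061 genes and 7 to 18 members. The cause of these moves was not tested.

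Some population differences, none called, reversed. Bmpr1b became -0.385 and Id4 -0.0581 after quantile normalization, with or without the block. Id4 became -0.0631 after median scaling, -0.130 with the common floor (with or without the block) and -0.0279 with array weights. Id1 became -0.0679 after median scaling and -0.193 with array weights, and Id3 0.0195 with array weights. In the replicate block, Id1 was -0.140 and Id4 -0.0849 without 567, Bmp4 was -0.00231 without 573 and Id4 -0.0923 without 631. Leaving out an array or a number gave -0.0499 to 0.72 for Bmp2, -0.21 to 1.33 for Bmp4, -0.12 to 0.97 for Bmpr1b, -0.10 to 0.74 for Smad6, -0.26 to 0.40 for Id1, -0.29 to 0.0843 for Id3 and -0.20 to 0.30 for Id4. Smad3, Id2 and Smad7 kept their sign in these refits.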
